A study of Homo sapiens with 8 samples.

Results

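FLT3, KIT and the JAK-STAT-PIM genes are 10 genes of 1 signalling route in blood cells: the receptors FLT3 and KIT, the kinases JAK1 and JAK2, the transcription factors STAT3, STAT5A and STAT5B, and the STAT5 target genes CISH, PIM1 and PIM2. They were chosen by symbol, by a rule that uses no measured value but was set with earlier results of these data known, and are 10 of 60196 gene symbols used. RNA of P-body preparations was compared with RNA of the cytosol (labelled "cyto fraction") in 2 human acute myeloid leukaemia cell lines, HEL and MOLM-13, with 2 libraries in each of 4 groups. HEL, an erythroleukaemia line, carries an activating JAK2 mutation, and MOLM-13, a monocytic leukaemia line, has an internal duplication in FLT3. The counts used here are per gene and do not separate alleles. The labels name no treatment and no engineered change in any group, and both lines grew in RPMI medium with serum. Each line is 1 model of its kind, and the sources used here do not give the way P-bodies were isolated.

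P-bodies are granules in the cytoplasm, made of RNA-binding proteins and of mRNAs kept apart from active translation. FLT3 and KIT are related receptor tyrosine kinases that drive growth and survival of blood progenitors, and cytokine receptors that lack a kinase of their own use JAK1 and JAK2. Active JAKs, and mutated FLT3, phosphorylate STAT proteins, which enter the nucleus and switch on genes such as CISH and the PIM kinases. CISH feeds back on the receptors as an inhibitor, and PIM1 and PIM2 are serine/threonine kinases that favour survival and are made from short-lived mRNAs.

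The libraries held 13153551 to 18071473 counts in HEL and 5897625 to 11000536 in MOLM-13, so values in MOLM-13 carry more counting error. Levels are given in CPM, the usual read count per library size, with library sizes scaled by the TMM factors of the line's own 4 libraries, and changes are log2 ratios of P-body to cytosol with their SE, tested with edgeR's quasi-likelihood test, adjusted over all genes and called at an adjusted p below 0.05. A change is thus measured against most other genes of its library, and not as an amount of RNA: scaling by library totals moved the median change of all genes by -0.32 in HEL and -0.44 in MOLM-13 (log2). The summed lineage markers followed the lines, though single markers did not all do so. The 12 erythroid and megakaryocytic markers summed to 1387 to 1394 CPM in P-bodies and 2629 to 2813 CPM in cytosol of HEL. In MOLM-13 they summed to at most 4.39 CPM, and GATA1, TAL1, HBG1, HBG2 and ITGA2B were at 0 in both cytosolic libraries. ITGA2B stood at 1.17 and 1.66 CPM in the MOLM-13 P-body libraries. The 12 monocytic and granulocytic markers summed to 2244 to 2321 CPM in P-bodies and 3781 to 4033 CPM in cytosol of MOLM-13. In HEL they summed to at most 107 CPM, and MPO, ELANE, IRF8 and CD68 were at 0 in every library. CD68 and FCN1 were near 0 in MOLM-13 too, reaching 0.531 and 0.743 CPM. CD33 stood at 41.1 to 51.5 CPM in HEL and 67.2 to 80.6 CPM in MOLM-13. SPI1 stood at 22.6 to 46.2 CPM in HEL and 65.0 to 106 CPM in MOLM-13. The 8 lymphoid markers summed to at most 3.06 CPM in HEL. In MOLM-13 they summed to 115 to 116 CPM in P-bodies and 172 to 176 CPM in cytosol, mostly from the killer cell gene NKG7. The T cell gene CD3D stood at 32.1 to 34.4 CPM in the MOLM-13 libraries, while CD3E and CD2 were at 0 in each of them. The summed markers of a line's own lineage were lower in P-bodies than in cytosol, and their part in the results below was not tested.

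FLT3 was the member with the greatest P-body enrichment. It was measured in MOLM-13 and nearly absent from HEL. The gene lies on chromosome 13 from 28003274 to 28100592 on the minus strand (GRCh38, GENCODE 29, as for the gene spans that follow). In MOLM-13 its level was 138.6 and 142 CPM in the P-body libraries and 67.6 and 61.5 CPM in the cytosolic libraries. The groups stood well apart, and FLT3 was 2.18-fold higher in P-bodies (log2 change 1.12 ± 0.070, SE, adjusted p = 4.25e-13), above the change of 87.5% of genes tested. The rise passed the threshold under each alternative run, from 0.51 to 1.22. The lowest value came from the fit without the GC and length trend, which takes out the smooth relation of the change to GC content and transcript length over all genes. In HEL, FLT3 had 1 and 0 counts in P-bodies and 1 and 0 in cytosol. It was therefore not tested for partition in that line, and the count ratio of 1.02 has an exact interval of 0.0130 to 80.4.

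KIT, the receptor for stem cell factor, had the opposite distribution over the lines. Its gene lies on chromosome 4 from 54657918 to 54740715 on the plus strand. In HEL the levels were 59.8 and 53.9 CPM in P-bodies and 47.0 and 42.3 CPM in cytosol. The groups did not overlap, though the lower P-body library stood close to the higher cytosolic one. KIT was 1.28-fold higher in HEL P-bodies (log2 change 0.35 ± 0.10, SE, adjusted p = 0.00915), but the change was 0.025 with library totals and -0.14 in the fit without the GC and length trend. The call was also lost without HEL P-body replicate 1 (log2 change 0.28) and without HEL cytosol replicate 2 (0.27). In MOLM-13, KIT had 11 and 1 counts in P-bodies and 7 and 2 in cytosol, too few for a test. The ratio of P-body to cytosol there was 1.12, with a counting interval of 0.434 to 3.02. The ligands of both receptors were below 1 CPM in all 8 libraries: FLT3LG reached 0.726 CPM and KITLG 0.295 CPM.

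**Figure D1:**
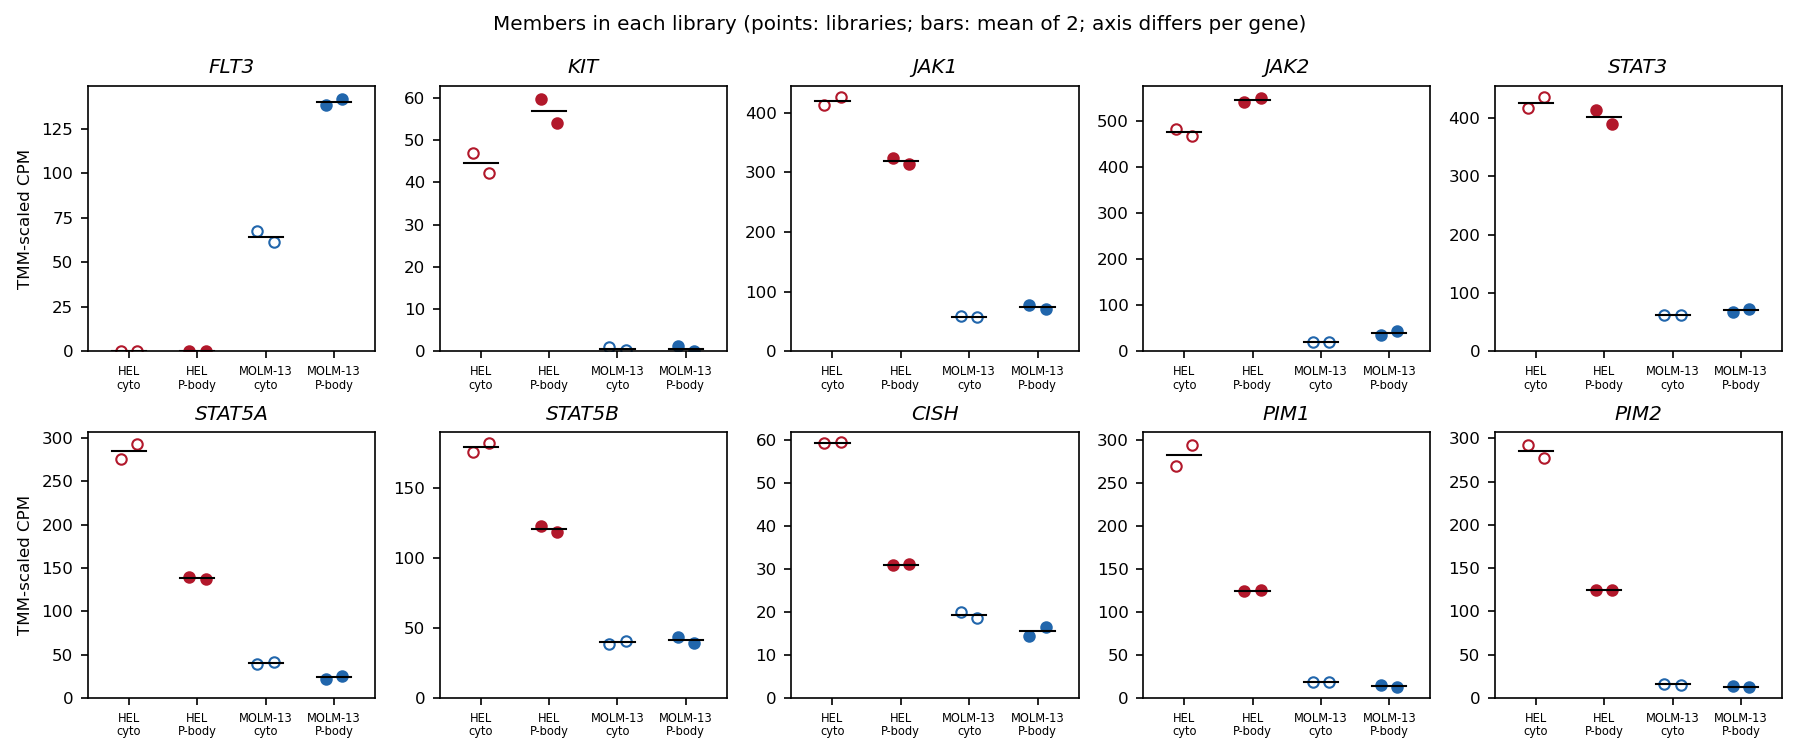
Level of each member in TMM-scaled CPM (y axis, from 0, with a scale of its own for each gene) in each library (open points for cytosol, filled for P-body, red for HEL, blue for MOLM-13), with bars for the mean of 2 libraries. FLT3 stands high only in MOLM-13 and KIT only in HEL, and the other 8 members lie higher in HEL than in MOLM-13 in every library.

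JAK2 was higher in P-bodies in both lines under the main scaling, strongly in MOLM-13 and slightly in HEL, where the direction turned with library totals. JAK2 is the kinase that the erythropoietin receptor uses, and its gene lies on chromosome 9 from 4984390 to 5128183 on the plus strand. Its MOLM-13 levels were 36.2 and 44.5 CPM in P-bodies and 19.5 and 20.1 CPM in cytosol. Both P-body libraries were far above both cytosolic ones, and the rise was 2.03-fold (log2 change 1.02 ± 0.12, SE, adjusted p = 7.82e-08). In the fit without the GC and length trend it was 0.13 and not called. In HEL it stood at 541 and 548 CPM in P-bodies and at 482.5 and 467 CPM in cytosol. The groups did not overlap and the difference was small. The change in HEL was 0.20 ± 0.067 (log2, SE, adjusted p = 0.0208), and it turned to -0.13 with library totals and to -0.60, called lower, in the fit without the GC and length trend. Without HEL cytosol replicate 1 (0.21) or replicate 2 (0.17) the call in HEL was lost.

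JAK1, a kinase shared by many cytokine receptors, moved in opposite directions in the lines under the main scaling, though not with library totals. Its gene lies on chromosome 1 from 64833229 to 64966504 on the minus strand. In HEL it stood at 323 and 314 CPM in P-bodies and at 413 and 426 CPM in cytosol. Both P-body libraries were lower (log2 change -0.40 ± 0.068, SE, adjusted p = 0.000157), and the fall was called under each alternative run. The MOLM-13 levels were 78.0 and 70.5 CPM in P-bodies and 59.6 and 57.0 CPM in cytosol. Here both P-body libraries were higher (log2 change 0.35 ± 0.081, SE, adjusted p = 0.000564), but the change was -0.086 with library totals and 0.0058 in the fit without the GC and length trend, and neither was called.

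The JAK2 to JAK1 count ratio does not depend on how libraries are scaled, and it was higher in P-bodies than in cytosol in both lines. In HEL it was 1.67 and 1.75 in P-bodies and 1.17 and 1.10 in cytosol. In MOLM-13 it was 0.464 and 0.630 in P-bodies and 0.327 and 0.352 in cytosol. The fractions did not overlap in either line, and JAK2 had more counts than JAK1 in all 4 HEL libraries and fewer in all 4 MOLM-13 libraries. The ratio is not free of the GC and length trend. In the fit without that trend, JAK2 and JAK1 changed nearly alike in HEL (-0.60 and -0.55), and by 0.13 and 0.0058 in MOLM-13.

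Of the 3 STAT genes, STAT5A was lower in P-bodies in both lines, STAT5B was lower in HEL and not called in MOLM-13, and STAT3 was not called in either. The 3 genes are neighbours on chromosome 17: STAT5B from 42199168 to 42276707 on the minus strand, STAT5A from 42287547 to 42311943 on the plus strand, and STAT3 from 42313324 to 42388568 on the minus strand. STAT5A and STAT5B are close relatives that act downstream of FLT3 and JAK2. In HEL, STAT5A stood at 140.2 and 137 CPM in P-bodies and at 276 and 293 CPM in cytosol. It was 2.05-fold lower in P-bodies (log2 change -1.04 ± 0.073, SE, adjusted p = 1.41e-08). STAT5A in MOLM-13 stood at 21.8 and 25.8 CPM in P-bodies and at 39.5 and 40.9 CPM in cytosol. The fall was 1.70-fold (log2 change -0.76 ± 0.11, SE, adjusted p = 1.98e-06). The groups stood apart in both lines, and STAT5A was called lower in each line under each alternative run, with its smallest sizes, -0.43 in HEL and -0.29 in MOLM-13, in the fit without the GC and length trend.

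STAT5B in HEL stood at 123 and 119 CPM in P-bodies and at 176 and 183 CPM in cytosol, a log2 change of -0.57 ± 0.076 (SE, adjusted p = 1.40e-05). In MOLM-13 it stood at 43.4 and 39.4 CPM in P-bodies and at 38.5 and 40.8 CPM in cytosol. These groups overlapped, and the log2 change was 0.062 ± 0.097 (SE, adjusted p = 0.603). With library totals it was -0.38 and called lower. The STAT5A to STAT5B count ratio, free of scaling, was lower in P-bodies in both lines: 1.14 and 1.16 against 1.57 and 1.60 in HEL, and 0.501 and 0.657 against 1.03 and 1.00 in MOLM-13. Their transcripts share an identical run of 429 bases, and 9.96% of the 75-base windows of STAT5A and 8.37% of those of STAT5B occur in the other, so reads from these stretches may have been split between them or dropped. No other pair of members shared such a window.

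STAT3, which many interleukin receptors activate, stood at 413 and 389 CPM in P-bodies and at 417 and 436 CPM in cytosol of HEL. All 4 libraries lay close together, and the log2 change was -0.088 ± 0.069 (SE, adjusted p = 0.304). In MOLM-13 it stood at 67.9 and 73.0 CPM in P-bodies and at 63.0 and 62.1 CPM in cytosol, a log2 change of 0.17 ± 0.079 (SE, adjusted p = 0.0631). With library totals STAT3 was called lower in both lines, at -0.41 in HEL and -0.27 in MOLM-13, and without MOLM-13 P-body replicate 1 it was called higher in MOLM-13, at 0.24.

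CISH, PIM1 and PIM2, the 3 STAT5 target genes, were lower in HEL P-bodies, by 1.91-fold to 2.28-fold. In MOLM-13, PIM1 was called lower and CISH and PIM2 were not called. CISH lies on chromosome 3 from 50606490 to 50611831 on the minus strand. Its promoter is shown because it alone among the members' windows holds the spaced palindrome TTCNNNGAA, the core that STAT5 recognises. The window is chr3:50611725-50612024 on the minus strand (RefSeq, GRCh38.p14), 5′ to 3′, with the 4 matches in capitals.
CISH promoter: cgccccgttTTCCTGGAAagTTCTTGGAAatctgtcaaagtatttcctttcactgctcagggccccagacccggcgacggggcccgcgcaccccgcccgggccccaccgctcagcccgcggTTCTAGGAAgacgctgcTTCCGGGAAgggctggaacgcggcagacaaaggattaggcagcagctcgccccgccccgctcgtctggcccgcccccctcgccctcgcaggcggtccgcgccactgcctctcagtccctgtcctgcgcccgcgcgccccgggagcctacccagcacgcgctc

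Counted from the start of transcription, the matches begin at -241, -230, -129 and -112. The motif reads the same on both strands, and its matches in CISH do not overlap one another. RefSeq windows of 300 bases were found for all 10 members, 17 windows in all, since some genes have several starts. Over 35116 such windows of human genes, 7.66% held the motif and 7 windows (0.0199%) held 4 or more. A match is a run of letters and was not tested for binding, and no match in the other windows says only that these letters are not there.

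In HEL, CISH stood at 31.0 and 31.1 CPM in P-bodies and at 59.3 and 59.6 CPM in cytosol. The fractions were far apart and the replicates nearly equal (log2 change -0.94 ± 0.098, SE, adjusted p = 1.17e-06). CISH in MOLM-13 stood at 14.4 and 16.6 CPM in P-bodies and at 19.9 and 18.5 CPM in cytosol. The groups did not overlap, but the log2 change of -0.31 ± 0.14 (SE, adjusted p = 0.0667) missed the threshold. It was -0.75 and called with library totals, -0.39 and called without MOLM-13 P-body replicate 2, and 0.10 in the fit without the GC and length trend. CISH shares 218 exonic bases with MAPKAPK3, a kinase gene on the other strand that was also lower in P-bodies in both lines. MAPKAPK3 stood at 152.6 and 150.2 CPM in P-bodies and at 253.5 and 254.3 CPM in cytosol of HEL. In MOLM-13 it stood at 39.5 and 38.7 CPM in P-bodies and at 48.8 and 59.3 CPM in cytosol. Since the sources used here do not give a strand setting for the counting, reads in the overlap cannot be told apart.

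PIM1 lies on chromosome 6 from 37170203 to 37175426 on the plus strand. In HEL it stood at 125 CPM in both P-body libraries and at 269 and 295 CPM in cytosol. That is a 2.26-fold fall (log2 change -1.18 ± 0.076, SE, adjusted p = 5.48e-09). In MOLM-13 it stood at 15.0 and 12.9 CPM in P-bodies and at 18.7 and 18.4 CPM in cytosol, on 109 to 152 counts per library. The groups did not overlap, and the log2 change was -0.41 ± 0.15 (SE, adjusted p = 0.0198). That call was lost with DESeq2, with no filter on low counts, in the fit without the GC and length trend (-0.11), and without MOLM-13 P-body replicate 2 (-0.29), cytosol replicate 1 (-0.37) or cytosol replicate 2 (-0.40).

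PIM2 lies on chromosome X from 48913182 to 48919024 on the minus strand. In HEL it stood at 124 and 125 CPM in P-bodies and at 293 and 278 CPM in cytosol, nearly the levels of PIM1. It was 2.28-fold lower in P-bodies (log2 change -1.19 ± 0.073, SE, adjusted p = 3.18e-09), the strongest fall among the members. In MOLM-13 it stood at 13.5 and 12.6 CPM in P-bodies and at 16.4 and 15.3 CPM in cytosol. All P-body values were below the cytosolic ones, but the log2 change of -0.27 ± 0.15 (SE, adjusted p = 0.128) did not pass the test. With library totals it was -0.71 and called. The falls of CISH, PIM1 and PIM2 in HEL were called under each alternative run, and in the fit without the GC and length trend they were -0.48, -0.73 and -0.85.

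Counting PIM1 against JAK2 in the same library sets a target gene against the kinase upstream of it with no scaling. In HEL the ratio was 0.231 and 0.228 in P-bodies and 0.559 and 0.631 in cytosol. In MOLM-13 it was 0.413 and 0.291 in P-bodies and 0.962 and 0.916 in cytosol. P-body libraries thus held fewer PIM1 reads per JAK2 read than cytosolic libraries in both lines, with no overlap. The ratio restates the changes of PIM1 and JAK2 given above and is no separate result. In the fit without the GC and length trend, PIM1 and JAK2 changed by -0.73 and -0.60 in HEL and by -0.11 and 0.13 in MOLM-13.

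**Figure D2:**
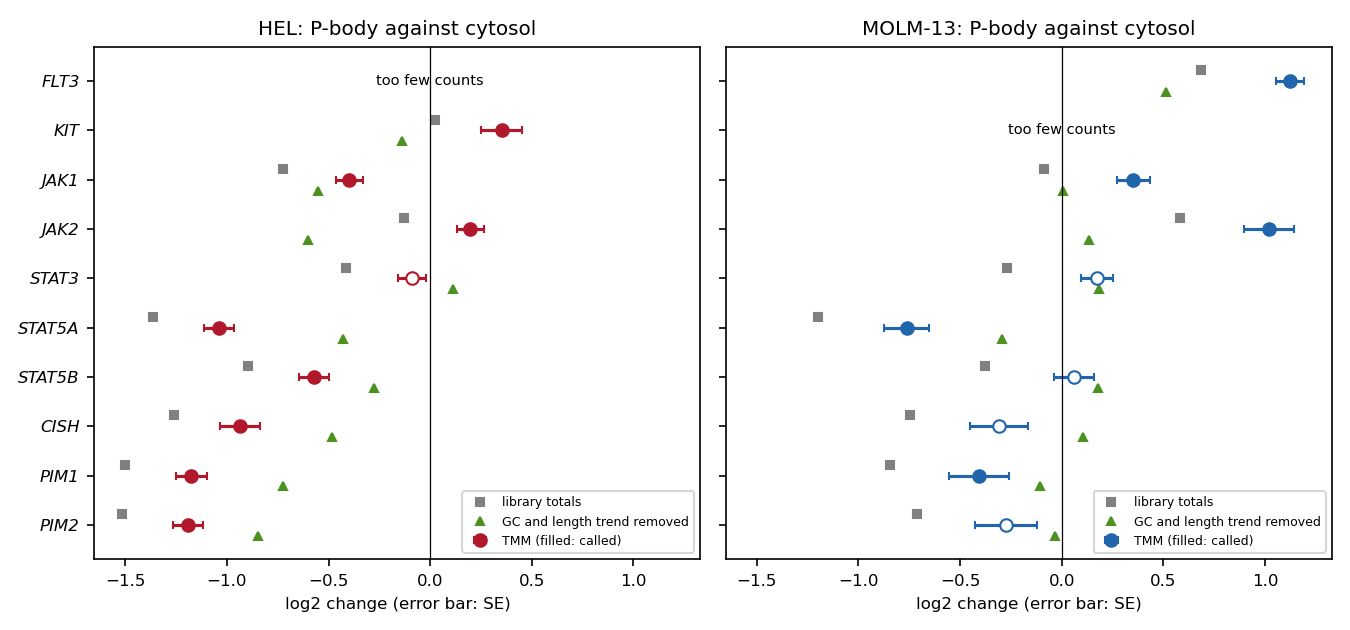
Log2 change of each tested member between P-body and cytosol (x axis) in HEL and MOLM-13, as circles with bars of 1 SE (TMM scaling, filled where called), grey squares (library totals) and green triangles (fit without the GC and length trend). FLT3 at 1.12 and JAK2 at 1.02 in MOLM-13 stand highest, and PIM1 at -1.18 and PIM2 at -1.19 in HEL stand lowest.

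Of the 9 members tested in HEL, 2 were called higher (KIT and JAK2) and 6 lower (JAK1, STAT5A, STAT5B, CISH, PIM1 and PIM2), beside 54.6% of all genes called, 27.5% higher and 27.1% lower. The median log2 change was -0.57 for the members and -0.06 for all genes tested. In MOLM-13, 3 of the 9 tested were called higher (FLT3, JAK1 and JAK2) and 2 lower (STAT5A and PIM1), beside 60.8% of all genes called, 32.4% higher and 28.5% lower, and the medians were 0.06 and -0.04. A call is common among all genes in both lines, and the share of members called was near that background in MOLM-13. Calls were more common among better expressed genes. With a minimum of 5 CPM in 2 libraries, 3548 of 10508 genes were higher and 3745 lower in HEL, beside 2 and 6 members. In MOLM-13, 3920 of 10581 were higher and 4075 lower, beside 3 and 4 members. Each line left out 1 member for low counts, FLT3 in HEL and KIT in MOLM-13. With library totals, 7 members were called lower in HEL and KIT and JAK2 were not called, and in MOLM-13 FLT3 and JAK2 were called higher, 6 members lower, and JAK1 was not called.

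The lines were then compared directly, by the difference of their log2 changes (MOLM-13 minus HEL) in 1 fit of all 8 libraries. For 5 of the 10 members the P-body change was called more positive in MOLM-13, and for 0 more negative, beside 22.2% of all genes called, 9.15% more positive and 13.0% more negative. With a minimum of 5 CPM in 2 libraries, 1407 of 12200 genes were more positive and 2774 more negative, beside 5 and 0 members. At an unadjusted p below 0.05, and with DESeq2, 0 members were more negative as well. JAK1 went from below to above 0 between the lines, with a difference of 0.56 ± 0.10 (log2, SE, adjusted p = 0.000376). JAK2 differed by 0.63 ± 0.13 (adjusted p = 0.000824), STAT5B by 0.44 ± 0.12 (adjusted p = 0.0108), PIM1 by 0.58 ± 0.15 (adjusted p = 0.00645) and PIM2 by 0.73 ± 0.14 (adjusted p = 0.000717). CISH differed by 0.44 ± 0.17 and missed the threshold (adjusted p = 0.0719). STAT3 and STAT5A had differences of 0.07 ± 0.10 and 0.08 ± 0.13. FLT3 and KIT rest on near-zero counts in 1 line each, and their SEs of 1.93 and 0.77 leave the difference unmeasured. CISH was called with DESeq2-type size factors in edgeR (RLE, 0.51), with library totals (0.52), without HEL P-body replicate 1 (0.75), HEL cytosol replicate 1 (0.74) or HEL cytosol replicate 2 (0.72), and with the TMM factors of each line's own fit (0.63), an alternative chosen after seeing the data. With that last one the 5 differences were 0.63 to 0.92.

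The zero of this comparison depends on scaling over lines that differ in most genes. Without HEL P-body replicate 1, or without HEL cytosol replicate 1, 8 members were called, and without MOLM-13 P-body replicate 1, 3 were. The calls lost there were STAT5B (0.37) and PIM1 (0.47), and STAT5B was also lost without MOLM-13 cytosol replicate 1 (0.40) and in the fit without the GC and length trend. JAK1, JAK2 and PIM2 were called more positive in MOLM-13 under every alternative run.

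**Figure D3:**
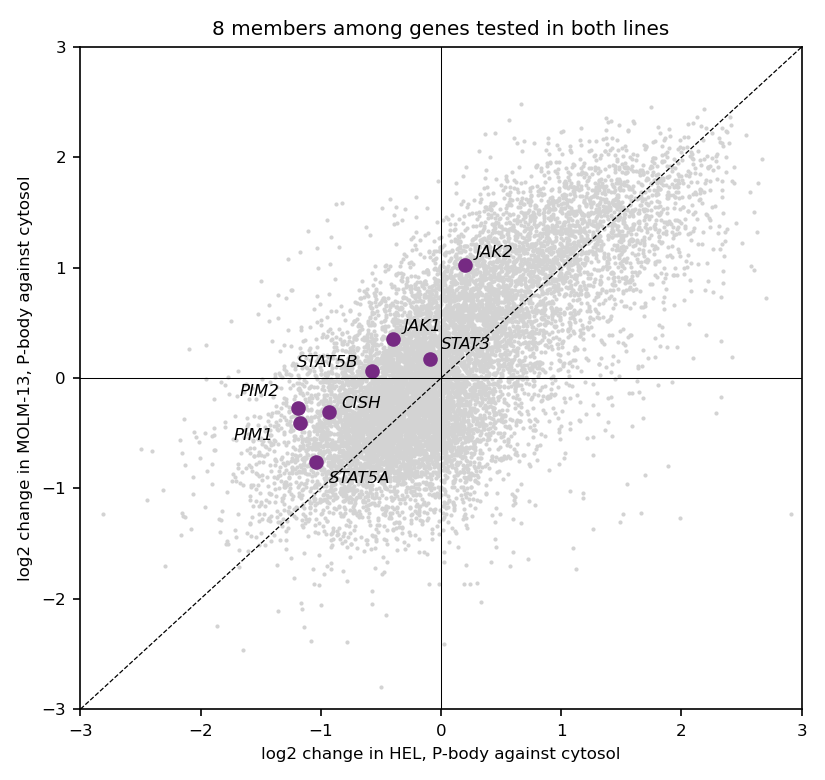
Log2 change between P-body and cytosol in HEL (x axis) and in MOLM-13 (y axis) for the 11984 genes tested in both lines (grey) and the 8 members among them (named), with the line of equal change dashed and 5 genes beyond the axes. The changes are from each line's own fit, and all 8 named points lie above the dashed line. With the TMM factors of those fits, 65.3% of all genes called in the line difference were more positive in MOLM-13, against 41.3% in the main fit. JAK1, STAT3 and STAT5B lie below 0 in HEL and above 0 in MOLM-13, where all 3 are below 0 with library totals. Under the main scaling STAT3 was called in neither line, and STAT5B not in MOLM-13.

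The levels themselves differed between the lines for all 10 members. In cytosol, 1 member (FLT3) was called higher in MOLM-13 and 9 were called lower, beside 84.4% of all genes called, 44.2% higher and 40.1% lower. In P-bodies the counts were the same, 1 higher and 9 lower, beside 81.8% of all genes called, 41.0% higher and 40.8% lower. FLT3 in MOLM-13 exceeded HEL 2233-fold in cytosol (counting interval 400 to 88279) and 4169-fold in P-bodies (748 to 164726), each against a single HEL count. KIT in HEL exceeded MOLM-13 68.5-fold in cytosol (36.0 to 150) and 89.2-fold in P-bodies (51.0 to 173). These intervals cover counting error only, at 95% confidence.

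JAK2 was 22.1-fold lower in MOLM-13 cytosol than in HEL cytosol and 14.3-fold lower in P-bodies. PIM2 was 16.7-fold and 10.1-fold lower, and PIM1 14.0-fold and 9.40-fold lower, in the same order. JAK1, STAT3 and STAT5A were 6.30-fold to 6.65-fold lower in cytosol, STAT5B 4.17-fold and CISH 2.86-fold. In P-bodies STAT5A was 6.15-fold lower, JAK1 4.51-fold, STAT5B 3.07-fold and CISH 2.11-fold, and STAT3 had a log2 difference of -2.59. Each of the 9 falls was called under every alternative run, in both fractions. The lines come from separate tables of raw counts, and a line cannot be told apart from any batch that its libraries shared. In bulk libraries, fewer cells with a transcript and less of it per cell cannot be told apart either.

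Per kilobase of transcript, the order of the members changed between fractions as well as between lines. In HEL cytosol PIM2 was highest at 137 CPM per kb, then PIM1 at 106, JAK2 at 89.9, STAT3 at 84.5, JAK1 at 83.1, STAT5A at 66.2, STAT5B at 35.1, CISH at 27.4 and KIT at 8.60. STAT3 and JAK1 overlapped there. In HEL P-bodies JAK2 led at 103 CPM per kb, followed by STAT3 at 79.5, JAK1 at 63.1, PIM2 at 60.1 and PIM1 at 47.1, so by this length the PIM kinases stood behind both JAKs and STAT3. STAT5A at 32.2, STAT5B at 23.6, CISH at 14.3 and KIT at 11.0 came last. In MOLM-13 FLT3 led both fractions, at 16.8 CPM per kb in cytosol and 36.5 in P-bodies.

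Behind FLT3, MOLM-13 cytosol had STAT3 at 12.4 CPM per kb, JAK1 at 11.6, STAT5A at 9.35, CISH at 8.87, STAT5B at 7.77, PIM2 at 7.62, PIM1 at 7.01, JAK2 at 3.74 and KIT at 0.123. STAT5B and PIM2 overlapped. MOLM-13 P-bodies had JAK1 at 14.7, STAT3 at 14.0, STAT5B at 8.11, JAK2 at 7.63, CISH at 7.16, PIM2 at 6.28, STAT5A at 5.53, PIM1 at 5.26 and KIT at 0.124. JAK1 and STAT3 overlapped, as did STAT5B with JAK2, JAK2 with CISH, and STAT5A with PIM1. JAK2 moved from rank 9 in cytosol to rank 5 in P-bodies, and STAT5A from rank 4 to rank 8. With the summed length of all annotated exons in place of the longest coding transcript, most of these levels moved by more than the replicate SD. CISH fell from rank 5 to 8 in cytosol and from 6 to 9 in P-bodies of MOLM-13, PIM1 went from rank 8 to 5 in MOLM-13 cytosol, and STAT3 went from rank 4 to 6 in HEL cytosol. In HEL P-bodies STAT3 at 45.5 and PIM2 at 45.2 CPM per kb were then level. FLT3 stayed first in both fractions of MOLM-13.

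The members differed in base composition, and their changes followed the order seen over all genes in part. G or C at the third codon position was 34.5% in JAK2, 44.9% in FLT3 and 47.8% in KIT, below the median of about 57.6% of genes tested in HEL and 57.8% in MOLM-13. JAK1 stood at 59.4%, STAT3 at 63.9%, PIM2 at 64.6%, CISH at 68.4%, STAT5B at 70.4%, STAT5A at 79.2% and PIM1 at 79.6%. The members called higher under the main scaling in both lines or in the line where they were measured (JAK2, FLT3 and KIT, though JAK2 and KIT in HEL were not called with library totals) were the 3 with the lowest share. The start of the coding sequence is printed for JAK2 and FLT3, which were higher in MOLM-13 P-bodies, for STAT5A and PIM1, which were lower in both lines, and for STAT5B and CISH, which were lower in HEL and whose starts do not follow that contrast. Each line gives the first 90 bases, 5′ to 3′ (GENCODE 29, GRCh38), with G or C at the third codon position in capitals.
JAK2: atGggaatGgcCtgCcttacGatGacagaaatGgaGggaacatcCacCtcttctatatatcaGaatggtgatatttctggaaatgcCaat
FLT3: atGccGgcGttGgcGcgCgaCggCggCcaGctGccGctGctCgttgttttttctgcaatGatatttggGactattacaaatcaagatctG
STAT5A: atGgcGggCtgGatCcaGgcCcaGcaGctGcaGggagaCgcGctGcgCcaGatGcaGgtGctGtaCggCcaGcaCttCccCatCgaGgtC
PIM1: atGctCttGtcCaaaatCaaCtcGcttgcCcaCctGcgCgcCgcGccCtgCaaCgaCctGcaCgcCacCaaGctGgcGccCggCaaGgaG
STAT5B: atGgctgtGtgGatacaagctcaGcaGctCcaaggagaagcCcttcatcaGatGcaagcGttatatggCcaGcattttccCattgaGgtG
CISH: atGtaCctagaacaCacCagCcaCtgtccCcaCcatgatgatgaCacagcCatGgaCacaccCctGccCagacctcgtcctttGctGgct

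Among the first 30 codons, G or C ended 12 in JAK2, 15 in STAT5B, 16 in KIT, 17 in FLT3 and in CISH, 19 in JAK1, 22 in STAT3, 23 in PIM2, 28 in PIM1 and 29 in STAT5A. STAT5B and CISH thus started with no more than FLT3, though over their whole coding sequences they stood well above it, and both were lower in HEL P-bodies. Over all genes with a coding sequence, the log2 change fell with the share of G or C at the third position, with Spearman's rho of -0.64 in HEL (11841 genes) and -0.72 in MOLM-13 (11138 genes). These are correlations across genes of the same libraries, given as a description. The trend left room for the members to differ. PIM2 and STAT3 have nearly the same share, and in HEL PIM2 changed by -1.19 and STAT3 by -0.088. Their transcripts differ in GC content (55.1% and 50.4%) and length (2075 and 5047 bases), where the trend on these in HEL was -0.35 and -0.2. JAK2, the member with the lowest share, changed by 0.20 in HEL, where the trend at its GC content and length was 0.80.

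**Figure D4:**
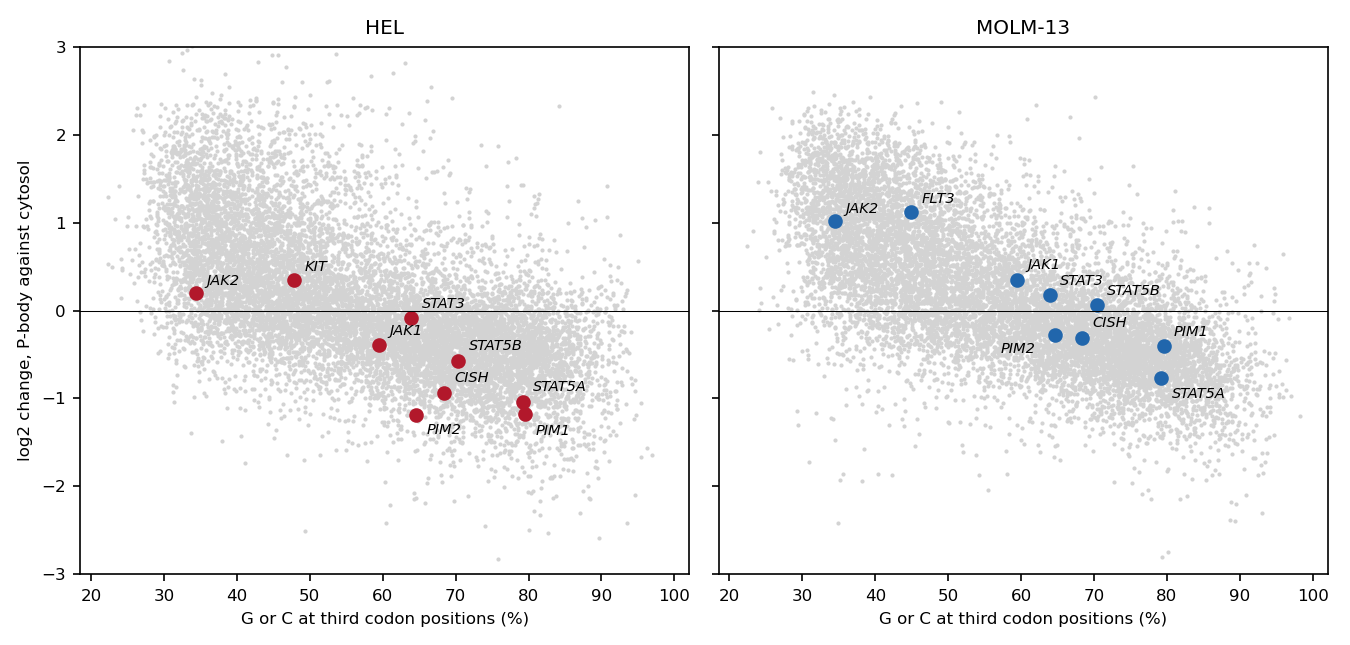
Log2 change between P-body and cytosol (y axis) against the share of G or C at the third codon position in % (x axis), for all tested genes with a coding sequence (grey) and the members (coloured), in HEL and MOLM-13, with 14 and 2 genes beyond the axes. JAK2 and FLT3 lie at the upper left in MOLM-13, and PIM1 and STAT5A lie at the lower right in both panels.

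AU-rich runs, which mark many unstable mRNAs, were counted as TATTTAT in the 3′ untranslated region of the sense strand, with overlapping matches counted. PIM1 held 4, CISH 3, JAK2 1 and STAT5B 1, and the other 6 members 0. Of 12580 tested genes, 31.1% held at least 1. Among the 1854 with a region of 900 to 1500 bases, the range in which those of PIM1 (1335) and CISH (1111) fall, 29.1% held at least 1, 2.21% at least 3 and 0.701% at least 4. PIM2 fell as much as PIM1 in HEL and held no match in its 949 bases. The relation of these runs to the P-body change was not tested.

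Around the members, 105 further genes of the route were listed by role, of which 102 were in the tables as single symbols (CSF2RA, IL3RA and CRLF2 stood on repeated rows). In HEL 85 were tested, and 21 were called higher and 40 lower, with a median of -0.34 (log2) beside -0.06 for all genes, of which 27.5% were called higher and 27.1% lower. In MOLM-13 80 were tested, 27 were called higher and 21 lower, with a median of -0.02 beside -0.04 and with 32.4% of all genes called higher and 28.5% lower, so these shares were near the background. The counts of each role list below stand beside these same shares of all genes, and the lists were not tested. Library totals gave 16 higher and 53 lower in HEL and 16 and 46 in MOLM-13, where the count of genes called lower was also 13 with DESeq2, 11 in the fit without the GC and length trend and 13 without MOLM-13 P-body replicate 1. The medians hide wide spreads within each role, from PIK3R1 and PTPN2 well above 0 to JAK3 and BCL3 well below.

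**Figure D5:**
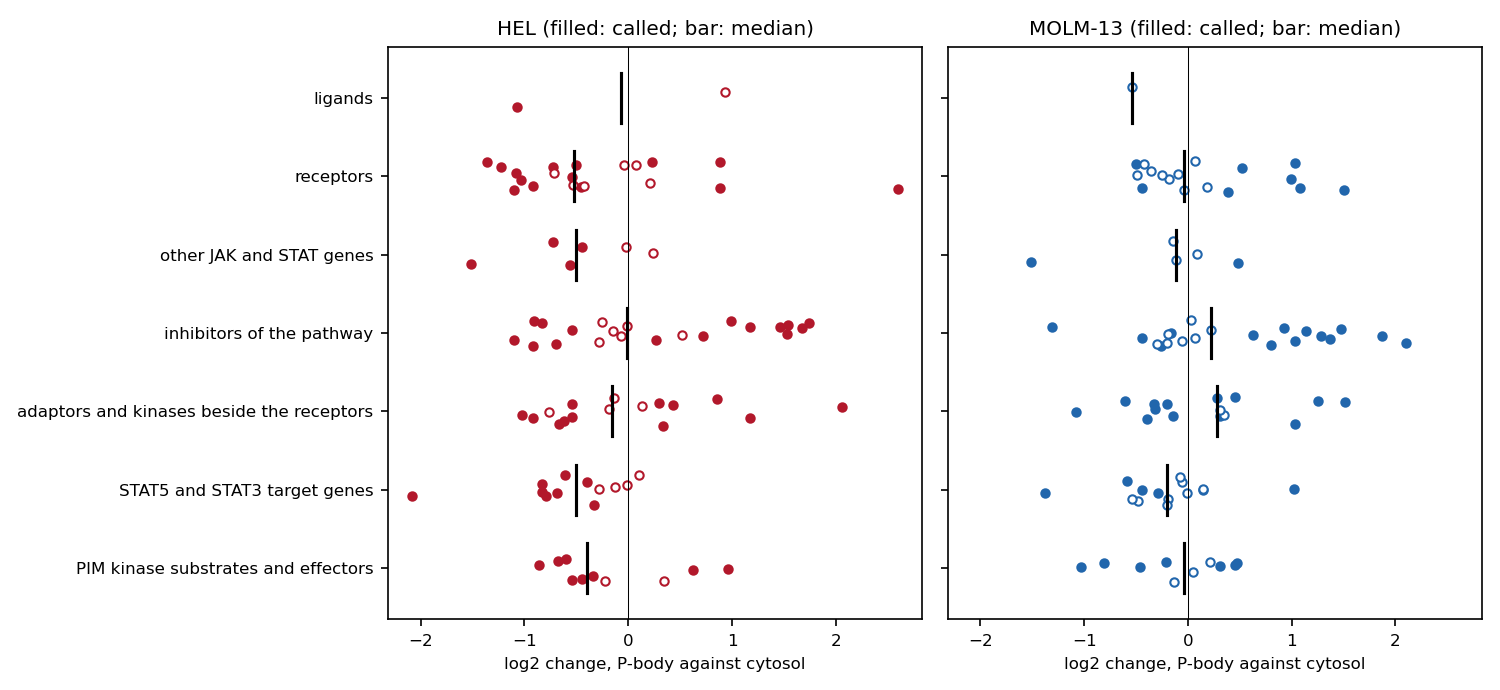
Log2 change between P-body and cytosol of each tested gene in 7 role lists (points, filled where called) with the median of each list (bars), in HEL and MOLM-13. The HEL medians of receptors (-0.52), STAT target genes (-0.50) and other JAK and STAT genes (-0.51) lie below those in MOLM-13 (-0.04, -0.20 and -0.11). Those of the ligands go the other way (-0.07 on 2 genes and -0.54 on 1). The medians come from separate fits, over genes that differ between the lines. By the direct test of the line difference, 14 of 89 listed genes were more positive in MOLM-13 and 14 more negative, beside 9.15% and 13.0% of all genes.

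Among cytokine receptors, 4 of 20 tested in HEL were higher and 10 lower, and 6 of 17 tested in MOLM-13 were higher and 2 lower. IL7R, the interleukin-7 receptor chain, rose in both lines, 6.06-fold in HEL (11.5 and 8.98 against 1.56 and 1.79 CPM) and 2.84-fold in MOLM-13 (12.1 and 12.9 against 4.72 and 4.12 CPM). CSF3R, the G-CSF receptor, was 1.42-fold lower in MOLM-13 P-bodies (172 and 184 against 237 and 267 CPM), but its change was 0.078 in the fit without the GC and length trend. Of 12 ligands only 2 in HEL and 1 in MOLM-13 could be tested, and CSF1, the macrophage growth factor, was 2.11-fold lower in HEL P-bodies.

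Of the 6 other JAK and STAT genes, 4 were lower in HEL and the other 2 were not called, and 1 was higher and 1 lower among 5 tested in MOLM-13. JAK3, which pairs with the common gamma chain, was 2.85-fold lower in both lines (55.1 and 54.5 against 145 and 167 CPM in HEL, and 0.955 and 1.42 against 3.10 and 3.63 CPM in MOLM-13). JAK3 and JAK2 thus had opposite directions in MOLM-13, where JAK2 rose.

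Of 21 genes listed as inhibitors of the route, 9 were higher and 6 lower in HEL (27.5% and 27.1% of all genes). In MOLM-13, 10 were higher and 4 lower (32.4% and 28.5% of all genes). The list was set by hand, and a gene in it may also act in other ways. SOCS6, a suppressor of cytokine signalling that binds KIT and FLT3, was 3.35-fold higher in HEL P-bodies (209.9 and 213 against 64.6 and 61.6 CPM). PTPN2, a phosphatase that acts on JAK1 and STAT proteins, was 4.29-fold higher in MOLM-13 P-bodies (515 and 509 against 119.5 and 119.1 CPM). Each was also called higher in the other line, SOCS6 2.77-fold in MOLM-13 and PTPN2 2.88-fold in HEL. In contrast SH2B3, an adaptor that restrains JAK2, was 2.14-fold lower in HEL P-bodies, and PIAS4, a SUMO ligase, was 2.48-fold lower in MOLM-13 P-bodies. SH2B3 in MOLM-13 and PIAS4 in HEL were not called. CISH, the member of the same function, was lower in HEL, where the median of this list was -0.01.

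Adaptors and kinases beside the receptors were split, with 6 of 16 higher and 6 lower in HEL and 6 of 15 higher and 7 lower in MOLM-13. PIK3R1, the regulatory subunit of PI3-kinase, was 4.16-fold higher in HEL P-bodies (316 and 282 against 75.2 and 68.9 CPM) and 2.85-fold higher in MOLM-13 (245 and 243 against 88.5 and 83.3 CPM). The adaptor SH2B1 was 2.11-fold lower in MOLM-13 P-bodies.

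Of further STAT5 and STAT3 target genes, 8 of 12 tested were lower in HEL and the other 4 were not called, and 1 of 14 was higher and 4 lower in MOLM-13. BCL3, a nuclear partner of NF-kappaB, was lower in both lines, 4.23-fold in HEL (1.19 and 2.21 against 7.06 and 7.32 CPM) and 2.59-fold in MOLM-13 (3.93 and 4.62 against 11.4 and 10.8 CPM). BCL6, a transcriptional repressor, was 2.03-fold higher in MOLM-13 P-bodies on low levels (6.47 and 6.52 against 3.69 and 2.78 CPM). CISH, PIM1 and PIM2 changed in HEL by more than the median of this list, -0.50.

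Of 10 PIM substrates and effectors, 2 were higher and 6 lower in HEL, and 3 were higher and 4 lower in MOLM-13. FOXO3, a transcription factor, was higher in both lines, 1.94-fold in HEL and 1.39-fold in MOLM-13. CDKN1A, an inhibitor of cyclin-dependent kinases, was 1.81-fold lower in HEL, and BAD, a BCL2 family protein that promotes cell death, was 2.04-fold lower in MOLM-13 (8.60 and 7.35 against 17.1 and 15.6 CPM). In the fit without the GC and length trend, the calls of CDKN1A in HEL and of BAD, BCL3 and SH2B1 in MOLM-13 were lost, as was that of JAK3 in MOLM-13 with the replicate block added (log2 change -0.95, adjusted p = 0.0504), and with library totals those of BCL6 and FOXO3 in MOLM-13.

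The genes most like JAK2 and PIM1 over the 8 libraries were found by the Euclidean distance of log2 CPM centred within each line, over 11984 genes. For JAK2 they were LEPROT (distance 0.143), SH3YL1 (0.169) and RAB22A (0.175), where the median gene was at 1.34. Their changes in MOLM-13 were 1.12, 0.93 and 1.08, and in HEL 0.12, 0.21 and 0.26. For PIM1 they were RARG (0.115), PLEKHG2 (0.137) and AARS1 (0.144), where the median gene was at 1.36. These had changes of -1.24, -1.26 and -1.12 in HEL and of -0.43, -0.39 and -0.36 in MOLM-13.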

How the data were processed

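RNA of P-body preparations and of cytosol of HEL and MOLM-13 was extracted with the miRNeasy Micro Kit and made into NEBNext Ultra II libraries, per the labels. The deposited tables, 1 per line, hold whole-number read counts by gene symbol with no normalization. STAR, DESeq2, SAMtools 1.12 and the build GRCh38 are named in the submitters' processing notes, and the counter, annotation and strand setting are not given there. Titles gave the groups. The replicates of a group differed by more than sampling noise, but nothing says that they came from separate cultures, so a p-value here measures spread that may be only technical.

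Of 61544 rows, 1348 carried 112 repeated symbols and were left out. Counts were fitted with edgeR 4.0.16 (R 4.3.3, limma 3.58.1) by the quasi-likelihood test, with TMM factors and filterByExpr at a minimum count of 10, over the 4 libraries of a line, or over all 8 for contrasts of the lines. P-values were adjusted by Benjamini-Hochberg over all genes tested and called below 0.05. SEs were derived from the fold change and its F statistic. Alternatives were other scalings and filters, DESeq2 1.42.0, a replicate block, removal of a loess trend (span 0.3) on transcript GC content and length, and leaving out each library. The fits were checked on simulated counts in which few genes changed, equally up and down. Most genes differ in the real libraries, so this check does not test the scaling. GENCODE 29 matched 55923 of 60308 symbols. Levels per kb use the transcript with the longest coding sequence. Intervals on count ratios are exact and cover counting error only.

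The members and lists were chosen with earlier results of these data known. Beside the members, the text names, in each role list and line, the called gene with the highest and the one with the lowest log2 change among genes with a mean of at least 1 CPM, the 3 genes nearest to JAK2 and to PIM1, and the ligands FLT3LG and KITLG, which were added after their values were seen. Some genes that this rule picks are not reported here.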

Additional observations from a re-analysis of the deposited data

Results flagged for a closer look

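The P-body change of 5 of the 10 members, and of 8 of the 15 other named pathway genes, differed between the lines by the direct test of the difference (MOLM-13 minus HEL, log2, edgeR quasi-likelihood test over 8 libraries, adjusted over all genes), beside 22.2% of all genes. The 15 had been picked as the called genes with the highest or lowest change in a line, so their count is over genes chosen for extreme values. The members were JAK1 (0.56, adjusted p = 0.000376), JAK2 (0.63, adjusted p = 0.000824), STAT5B (0.44, adjusted p = 0.0108), PIM1 (0.58, adjusted p = 0.00645) and PIM2 (0.73, adjusted p = 0.000717), all more positive in MOLM-13.

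Other genes more positive in MOLM-13 were SH2B3, the JAK2-restraining adaptor (0.70 ± 0.17, SE, adjusted p = 0.00504) and PTPN2 (0.38 ± 0.094, adjusted p = 0.00480). More negative in MOLM-13 were IL7R (-1.28 ± 0.33, adjusted p = 0.00699), PIAS4 (-1.26 ± 0.27, adjusted p = 0.00139), BAD (-0.99 ± 0.24, adjusted p = 0.00475), PIK3R1 (-0.74 ± 0.11, adjusted p = 2.91e-05), FOXO3 (-0.68 ± 0.10, adjusted p = 3.88e-05) and SOCS6 (-0.47 ± 0.15, adjusted p = 0.0254). IL7R, PIK3R1, SOCS6 and FOXO3 were nonetheless higher in P-bodies in both lines under the main scaling, and FOXO3 in MOLM-13 was not called with library totals. PTPN2 was higher in both lines as well.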

How the results depend on the processing

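With library totals, the count of members called higher in HEL went from 2 to 0, and in MOLM-13 the members called went from 5 to 8 and those lower from 2 to 6. Directions that turned there were JAK2 in HEL (-0.13) and JAK1 (-0.086), STAT3 (-0.27) and STAT5B (-0.38) in MOLM-13. In the fit without the GC and length trend, without and with the replicate block, 0 members were higher in HEL, and in MOLM-13 2 were called, 1 higher and 1 lower. Values that turned there, the same with and without the block, were KIT (-0.14), JAK2 (-0.60) and STAT3 (0.11) in HEL and CISH in MOLM-13 (0.10). CSF3R turned in MOLM-13 (0.078, and 0.083 with the block), and in the line difference STAT3 (-0.040 and -0.039) and STAT5A (-0.0077 and -0.0044). The count of members lower in MOLM-13 was 1 with no filter and with DESeq2, and 4 with a minimum of 5 CPM in 2 libraries and with all 8 libraries in 1 fit. STAT5B in MOLM-13 was -0.030 with that minimum and -0.052 in that fit, and STAT3 in the line difference -0.0038 with that minimum. The cause was not tested.

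Leaving out each library gave 0 to 2 members higher in HEL, 1 to 2 lower in MOLM-13, and 3 to 8 called in the line difference. STAT3 in HEL was 0.041 without HEL P-body replicate 2. In the line difference FLT3 ran from -0.80 without HEL cytosol replicate 1 to 3.13, KIT from -2.78 to 0.89 and STAT5A from -0.034 to 0.42. There KIT was 0.0083 without HEL P-body replicate 1, 0.41 without MOLM-13 P-body replicate 2 and 0.89 without MOLM-13 cytosol replicate 1, and STAT5A was -0.034 without MOLM-13 P-body replicate 2.

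Over all genes, library totals gave 6761 lower in HEL and 2903 higher and 7154 lower in MOLM-13, where DESeq2 gave 2623 lower and trend removal 2653. Of all genes called, 50.3% were higher in HEL (29.0% with library totals) and 53.2% in MOLM-13 (28.9%). In the line difference 41.3% were more positive, against 65.3% with the TMM factors of each line's own fit and up to 76.9% without 1 HEL library, and the median of all genes moved by up to 0.30 log2.

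Same-numbered libraries did not deviate together (correlation -0.068 in HEL and -0.010 in MOLM-13, 2 pairs each). With so few pairs this cannot settle whether the numbers pair samples, and the labels do not say. A replicate block gave 8, 5 and 5 members called in HEL, MOLM-13 and the line difference, and 7996, 8589 and 3713 genes. FLT3 in HEL and KIT in MOLM-13 had too few counts for a test of their P-body change.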
